A study of Mus musculus with 5 samples.

Results

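Of the 9884 autosomal promoters that carried a DNase I peak in both WT and dKO naïve CD8+ T cells, 163 (1.65%) ranked at least 20 percentile points higher among the dKO peaks than among the WT peaks. These 163 promoters are described here. A promoter was a WT peak whose summit lay within 1000 bp of an annotated transcript start on mm9. It counted as shared where a dKO peak overlapped it by 1 bp or more, and where several dKO peaks did so the one with the highest pileup was taken. The pileup is the number of sequenced fragments over the summit, and its percentile is the rank of the peak within its own complete list, from 0 for the weakest to 100 for the strongest. The difference of both percentiles, dKO minus WT, is called the gain. The promoters were chosen by this difference in pileup percentile, so pileups, percentiles and gains are given as a description without a test.

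DNase-seq marks stretches of DNA that the enzyme DNase I can reach and cut. WT cells came from hCD2-Cre+ Rosa26GFP Tcf7+/+ Lef1+/+ mice and dKO cells from hCD2-Cre+ Rosa26GFP Tcf7fl/fl Lef1fl/fl mice, in young adults of both sexes on the C57BL/6 background. Both groups thus carried the Cre transgene and the GFP reporter, and this Cre acts mainly in T cells that have left the thymus. GFP+ TCRbeta+ CD62Lhi CD44lo-med CD8+ cells were sorted from the spleen, with 3 WT and 2 dKO samples, and the authors pooled the samples of each genotype before they called peaks. In these lists each promoter therefore has 1 value per genotype, with no replicate error and no test between genotypes. The paper itself counted reads in each replicate and tested its sites between genotypes with edgeR. The WT pool held 83923734 fragments and 31116 peaks, and the dKO pool 62242963 fragments and 25525 peaks. The lists do not show the floxed deletion itself. Of the 9 CD8 T cell marker genes, 8 had a peak within 1000 bp of a start in WT and 7 in dKO (Thy1 had none, and Cd3d had one in WT cells). None of the 5 B cell, 3 erythroid or 2 CD4 T cell markers had a peak in either list. The NK cell marker Nkg7 had peaks in both lists whereas Ncr1, Klrb1c and Eomes had none, and the myeloid marker Itgam had 1 WT peak of 36 fragments.

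A promoter is the stretch around a transcript start where general transcription factors and RNA polymerase assemble. Promoters of widely used genes mostly lie in CpG islands and are open in nearly all cells, whereas promoters of cell type-restricted genes are more often poor in CpG and depend on lineage factors. Tcf1 (encoded by Tcf7) and Lef1 are HMG-box factors that maintain T cell identity, and Runx, ETS, T-box and AP-1 factors are other regulators of T cell promoters and enhancers. Gzmb, Ccl4 and Nkg7 are genes of the cytotoxic program that naïve CD8+ T cells switch on after activation.

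The sequences of 11 of these promoters are shown. They were picked among the named promoters for their genes or their motif letters, so motif frequencies cannot be read from them. Each is the part of the mm9 genome within 60 bp of the dKO summit that lies outside annotated exons, written 5′ to 3′ on the strand of the gene. Capitals mark matches on either strand to 1 of 14 motifs that were searched. Those found here are Runx (TGTGGT), AP-1 (TGANTCA), ETS (CCGGAA), GC box (GGGCGG), E-box (CACGTG) and CTCF.
Gzmb, upstream of the start (chr14:56881187-56881307, - strand): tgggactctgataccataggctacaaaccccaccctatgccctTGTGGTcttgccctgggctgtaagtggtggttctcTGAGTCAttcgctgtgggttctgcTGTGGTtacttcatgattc
Itgb7, intron (chr15:102061490-102061610, - strand): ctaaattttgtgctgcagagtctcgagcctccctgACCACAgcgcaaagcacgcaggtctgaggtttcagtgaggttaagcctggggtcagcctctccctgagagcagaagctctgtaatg
Nfkb1, intron (chr3:135265877-135265997, - strand): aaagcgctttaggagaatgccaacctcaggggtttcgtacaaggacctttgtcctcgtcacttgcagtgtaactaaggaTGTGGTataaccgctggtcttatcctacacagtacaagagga
Mcoln2, intron (chr3:145813614-145813734, + strand): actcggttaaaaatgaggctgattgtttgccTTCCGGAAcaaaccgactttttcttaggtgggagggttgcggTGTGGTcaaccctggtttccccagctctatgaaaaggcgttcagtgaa
Inf2, intron (chr12:113827277-113827397, + strand): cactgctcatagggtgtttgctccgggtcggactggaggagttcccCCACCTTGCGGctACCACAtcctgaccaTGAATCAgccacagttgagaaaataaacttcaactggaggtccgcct
Nkg7, upstream of the start (chr7:50692363-50692442, + strand): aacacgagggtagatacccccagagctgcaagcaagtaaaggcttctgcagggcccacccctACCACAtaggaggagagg
Tnfrsf9, intron (chr4:150298581-150298701, + strand): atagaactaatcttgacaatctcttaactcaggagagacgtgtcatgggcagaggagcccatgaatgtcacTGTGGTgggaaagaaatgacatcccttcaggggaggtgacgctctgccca
Ccl4, upstream of the start (chr11:83475834-83475954, + strand): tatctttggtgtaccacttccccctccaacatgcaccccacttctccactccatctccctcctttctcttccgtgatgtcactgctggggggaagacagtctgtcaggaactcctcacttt
Ctla2b, upstream of the start (chr13:60998809-60998917, - strand): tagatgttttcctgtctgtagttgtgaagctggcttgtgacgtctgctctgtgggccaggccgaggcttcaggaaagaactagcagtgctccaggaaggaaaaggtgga
Ctla2a, upstream of the start (chr13:61037987-61038081, - strand): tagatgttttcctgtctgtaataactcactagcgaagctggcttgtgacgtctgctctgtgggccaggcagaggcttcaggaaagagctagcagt
Bhlhe40, upstream of the nearest start (chr6:108610363-108610483, + strand): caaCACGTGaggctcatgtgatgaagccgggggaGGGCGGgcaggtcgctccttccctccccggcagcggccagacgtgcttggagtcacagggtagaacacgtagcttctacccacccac

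Runx letters stood in capitals in the stretches of Gzmb, Itgb7, Nfkb1, Mcoln2, Inf2, Nkg7 and Tnfrsf9. Gzmb and Inf2 also carried AP-1 letters, and Inf2 a CTCF match. The stretches of Ccl4, Ctla2b and Ctla2a held none of the 14 motifs, and that of Bhlhe40 held an E-box and a GC box. Stretches that are not printed, such as those of Fam124b, Snx30, Xdh and Anxa2, also held none. A match of letters is not a measured binding site.

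The 163 promoters were mostly weak in WT cells and average in dKO cells. Their median WT pileup was 41 fragments (quartiles 33 and 53, range 18 to 83), against 84 for all shared promoters. Their median dKO pileup was 57 fragments (quartiles 43 and 71, range 28 to 816), against 54 for all shared promoters. The WT values were thus low for a shared promoter and the dKO values ordinary, but the rule itself favours low WT ranks. In percentiles, the median was 33.0 in WT and 70.0 in dKO, against 75.3 and 66.8 for all shared promoters. None ranked above percentile 74.7 in WT, and 42.9% of all shared promoters ranked above percentile 80 there. A gain of 20 points cannot occur above WT percentile 80, so the rule fixes this absence. The median gain was 26.9 points (range 20.06 to 87.91), beside a median of -6.15 points over all shared promoters.

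**Figure D1:**
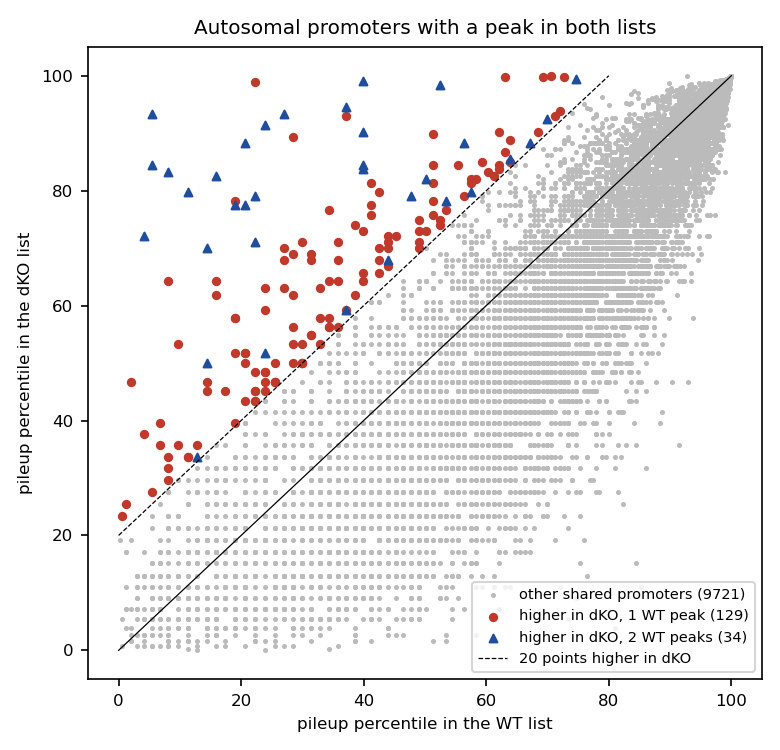
Pileup percentile in the dKO list (vertical axis) against that in the WT list (horizontal axis) for each of 9884 autosomal shared promoters. Red circles are the 129 promoters ranking higher in dKO with 1 WT peak under the dKO peak. Blue triangles are the 34 with 2 WT peaks, and grey points all others. The dashed line marks a gain of 20 points, which cannot occur above WT percentile 80. No red or blue point lies to the right of WT percentile 74.7.

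In the plot of percentiles the promoters fill the upper left, and the other side of the diagonal is more crowded. A gain of at least 20 points in the opposite direction, towards WT, was found for 1580 shared promoters (16.0%), and the other 8141 lay within 20 points. Many of the 163 lay close to the threshold. There were 72 with a gain under 25 points, and a further 133 shared promoters had a gain of 15 to under 20 points. The 3 nearest inside the threshold, Nub1, Zfp493 and Exosc3, each had 39 fragments in WT and 42 in dKO, a gain of 20.06. The 3 nearest outside were Smpdl3a with 30 and 34 fragments (gain 19.87) and Egln3 and Zfp458 with 26 and 31 each (gain 19.85). On both sides of the line the pileups differed by a few fragments.

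Scaled to depth, as fragments over the summit per 1000000 fragments of the pool (FPM), all 163 promoters had a higher value in dKO, where 24.9% of all shared promoters did. The median dKO over WT ratio was 1.67 (quartiles 1.54 and 2.02, range 1.44 to 14.3), against 0.872 for all shared promoters. The ratio was at least 1.5 for 141 of the 163 (86.5%, background 1.71%). The rule used the same pileups, so these shares describe the selection. Counting error was large at these depths, and cuts in a larger share of cells cannot be told apart from more cuts per cell. The 95% Poisson intervals of the WT and dKO values overlapped for all but 65 of the 163 promoters (39.9%, background 0.921%), and for all but 40 of the 129 with 1 WT peak. The fold enrichment, which is the same summit pileup over local background and thus holds the selecting value, ranked higher in dKO at 162 of 163 promoters (99.4%, background 33.0%), by at least 20 points at 129 (79.1%, background 2.46%). Trbd2 was the exception, with a fold enrichment of 4.49 in WT and 4.90 in dKO.

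Many of the largest gains lay under dKO peaks that covered a pair of WT peaks. At 34 of the 163 promoters the dKO peak covered 2 WT peaks, whereas 1.25% of all shared promoters lay in such a pair. Among the 124 shared promoters under such a dKO peak 27.4% belonged to the 163, against 1.32% (129 promoters) of the 9760 with 1 WT peak. In all 34 cases the other WT peak had more fragments than the paired one, and in 33 of 34 the dKO summit lay nearer to that stronger WT summit. The median distance of the dKO summit was 6.5 bp from the stronger WT summit and 346 bp from the paired one. In these the weaker WT peak was paired with a dKO summit that stood over the stronger one.

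At Cstf2t, a cleavage stimulation factor subunit, the paired WT peak had 23 fragments (percentile 5.41), the stronger WT peak beside it 129 (percentile 92.5) and the dKO peak 95 (percentile 93.3). At Txnl1, a thioredoxin-like protein gene, the same 3 values were 23, 94 and 75 fragments, at percentiles 5.41, 80.5 and 84.5. At B3gntl1 they were 25, 118 and 73 fragments (percentiles 8.10, 89.5 and 83.2) and at Arrdc1 27, 106 and 68 (percentiles 11.3, 85.6 and 79.8). In percentiles, the dKO peak stood nearer to the stronger WT peak than to the paired one in each of these. Over the 34, median percentiles were 32.1 for the paired WT peak, 85.6 for the other WT peak and 82.9 for the dKO peak. Measured against the stronger WT peak, the median dKO minus WT difference was -0.226 points (range -20.3 to 19.4), above 0 in 15 and 20 or more in 0 of the 34. Ccdc63 was the one with its dKO summit nearer to the paired peak, with 28 and 29 WT fragments and 33 in dKO. Of the 35 promoters with a gain of at least 40 points, 20 were among these 34 and 15 had 1 WT peak.

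**Figure D2:**
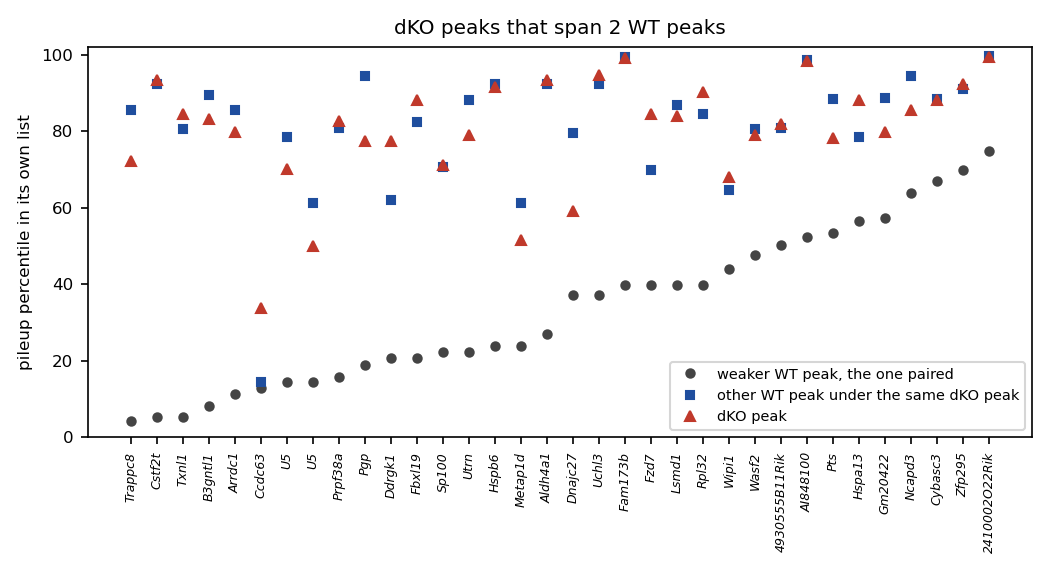
Pileup percentile within its own list (vertical axis) for the 34 promoters, named by gene along the horizontal axis, whose dKO peak (red triangles) covers 2 WT peaks. The paired weaker WT peaks (grey circles) have a median of 32.1, the other WT peaks (blue squares) 85.6 and the dKO peaks 82.9.

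The 129 had a median of 41 fragments in WT and 52 in dKO, a median gain of 25.6 points and a median FPM ratio of 1.63. Their summits lay close together, at most 25 bp apart in 72.9% (58.3% of all 163, 74.9% of all shared promoters).

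Among effector genes, the granzyme B promoter was one of the weakest in WT and had an ordinary rank in dKO. At Gzmb, which encodes a protease of cytotoxic granules, 25 fragments (0.298 FPM) lay over the WT summit and 52 (0.835 FPM) over the dKO summit. The peak went from percentile 8.10 to 64.4, an FPM ratio of 2.80, and its 95% Poisson intervals in fragments were 16.2 to 36.9 for WT and 38.8 to 68.2 for dKO. At Ccl4, which encodes the chemokine MIP-1β, the pileup was 39 in WT and 58 in dKO (percentiles 29.99 and 71.1, FPM ratio 2.01). From its own replicate counts the paper reports sites of increased accessibility in dKO at the promoters of Gzmb and Ccl4. Nkg7, a cytotoxic granule membrane protein gene, had 67 fragments in WT and 79 in dKO (percentiles 63.0 and 86.7, FPM ratio 1.59). Anxa2, the phospholipid-binding annexin A2, had 46 and 52 (percentiles 39.8 and 64.4). These genes formed 4 of the 19 shared promoters of the effector and cytotoxic list (21.1%), beside 1.65% of all shared promoters.

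Over the whole list the gains ran in both directions. The median gain was 7.61 points, against -6.15 for all shared promoters, and 12 of the 19 had a gain above 0 (23.5% of all shared promoters did). Just below the threshold was Serpinb6b, a serpin gene, with 28 and 32 fragments and a gain of 18.9. Fasl, the death receptor ligand, had 88 and 82 fragments (gain 10.8), and Ifng, the effector cytokine, had 23 in both lists (gain 7.61). Prf1, perforin, had 99 and 72 fragments and a gain of -0.251. Cxcr6, a chemokine receptor, lay at the other end with 90 and 30 fragments (gain -50.9), followed by Serpinb9, a granzyme B inhibitor, with 67 and 29 (gain -37.6). A second Nkg7 peak had 44 fragments in WT and 39 in dKO and was not among the 163.

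Of 68 shared promoters in the T cell function list, 3 were among the 163 (4.41%) and 21 ranked at least 20 points higher in WT. Over all shared promoters these shares were 1.65% and 16.0%. Itgb7, the β7 integrin chain of gut-homing T cells, had 38 fragments in WT and 84 in dKO, at percentiles 28.5 and 89.3. Its FPM ratio was 2.98, and its fold enrichment was 5.44 in WT and 14.8 in dKO. The peak lay in an intron, 827 bp into the gene. Cd7, a T cell surface glycoprotein, had 55 and 66 fragments (percentiles 51.3 and 78.2). Tnfrsf9, the costimulatory receptor 4-1BB, had 40 and 45 (percentiles 31.5 and 54.9).

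Of 71 shared promoters in the chromatin and transcription list, 2 (2.82%, background 1.65%) were among the 163. At least 20 points higher in WT ranked 11 of the 71, beside 16.0% of all shared promoters. Nfkb1, a subunit of NF-κB, had 37 fragments in WT and 57 in dKO (percentiles 27.0 and 70.0), in an intron 802 bp from the start. Runx1, a Runx factor of T cells, had the weakest WT peak of the 163, with 18 fragments in WT and 28 in dKO (percentiles 0.527 and 23.4). At Bhlhe40, a bHLH repressor induced in activated T cells, the pileup was 32 in WT and 66 in dKO (percentiles 19.0 and 78.2, FPM ratio 2.78). In WT, the fold enrichment was 3.60 at Bhlhe40 and 2.87 at Runx1, both below the 4 that the study set for its sites. This was so for 16.6% of the 163 in WT and for 0% in dKO. Fold enrichment holds the selecting pileup, so this contrast describes the selection.

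**Figure D3:**
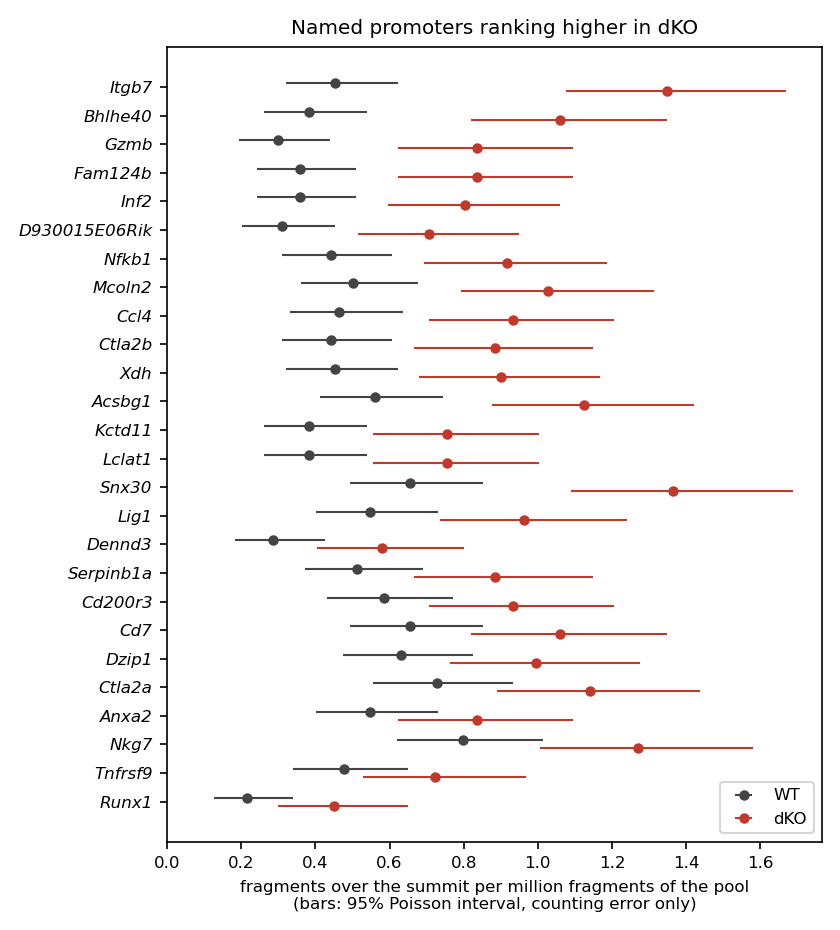
FPM over the summit (horizontal axis) for 26 named promoters ranking higher in dKO with summits at most 100 bp apart or in the T cell lists, ordered by gain, in WT (grey) and dKO (red). Bars are 95% Poisson intervals, which cover counting error only; the promoters were chosen by these pileups, so each red point lies right of its grey one by the choice, from Itgb7 with a ratio of 2.98 to Tnfrsf9 with 1.52.

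Other named genes had FPM ratios of 1.57 to 2.34. Fam124b had 30 and 52 fragments, Inf2, a formin of the actin cytoskeleton, 30 and 50, and Mcoln2, a lysosomal cation channel, 42 and 64. Snx30, a sorting nexin, had 55 and 85 fragments (percentiles 51.3 and 89.8). Xdh, xanthine dehydrogenase, had 38 and 56 and Acsbg1, an acyl-CoA synthetase, 47 and 70. D930015E06Rik had 26 and 44, and Kctd11 and Lclat1 32 and 47 each. Ctla2b and its paralog Ctla2a, cysteine protease inhibitors expressed in activated T cells, were neighbours on chromosome 13, with 37 and 55 fragments at Ctla2b and 61 and 71 at Ctla2a. Lig1, the replicative DNA ligase, had 46 and 60, Dennd3 24 and 36, Serpinb1a 43 and 55, Cd200r3 49 and 58, and Dzip1 53 and 62.

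The study's lineage-enriched gene lists, built on expression data from outside this series, held the gene of 32 of the 163 promoters (19.6%, 95% Wilson interval 14.3 to 26.4), beside 8.45% of all shared promoters and 12.9% of the 2484 shared promoters with the lowest WT rank. Among the 129 it was 22.5%. The share of each list's shared promoters that belonged to the 163 was highest for naive CD4 T cells, with 1 of 7 (14.3%, Cd200r3), and γδ T cells, with 15 of 130 (11.5%). It was 2 of 22 (9.09%) for naive CD8 T cells, 8 of 107 (7.48%) for NK cells, 3 of 53 (5.66%) for Treg cells and 6 of 174 (3.45%) for effector CD8 T cells. It was 3 of 97 (3.09%) for pan-T cells. For granulocytes it was 9 of 200 (4.50%), of which 3 were peaks of Aldoa. In each of these lists but that of γδ T cells, more promoters ranked at least 20 points higher in WT than belonged to the 163. The same held over all 9884 shared promoters, where 1580 (16.0%) ranked that much higher in WT and 163 (1.65%) in dKO. Those higher in WT were 13 for NK cells, 5 for naive CD8 T cells, 2 for naive CD4 T cells, 9 for Treg cells, 20 for effector CD8 T cells, 25 for pan-T cells and 34 for granulocytes, and 12 for γδ T cells. The share that belonged to the 163 was 3 of 128 (2.34%) for B cells, and cDC, monocytes and pDC had 1 promoter each. The NK cell list had a median gain of 0.853 points and the γδ T cell list one of -2.11. The lists share genes, such as Ccl4, Nkg7, Ctla2a and Tnfrsf9. Of the NK cell markers, Nkg7 had 2 peaks near a start in each list, whereas Ncr1, Klrb1c and Eomes had none in either. Eomes is not confined to NK cells, as the paper reports reduced Eomes transcripts and protein in dKO CD8+ T cells. Whether cells of another type took part was not tested.

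Replication-dependent histone genes, which lie in clusters and supply new nucleosomes in S phase, gave 4 of their 40 shared promoters. Hist1h3f had 40 fragments in WT and 56 in dKO (percentiles 31.5 and 69.0). Hist1h2bb had 38 and 50, Hist1h2ak 53 and 58 and Hist1h4f 42 and 46. Over the list as a whole, the median gain was 6.88 points, against -6.15 for all shared promoters. A gain above 0 was found for 31 of 40 (background 23.5%), and 0 of 40 ranked 20 points higher in WT (background 16.0%). Histone genes resemble each other, and the study kept only uniquely mapped reads. What this did to their pileups was not tested. The cell cycle list gave 1 of 43 (2.33%), with a median gain of -3.68. This was Mcm3, a replicative helicase subunit, with 68 and 76 fragments.

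The other lists gave few of the 163. Cytosolic ribosomal proteins gave 1 of 80, Rpl32, whose dKO peak covered 2 WT peaks (46 and 103 fragments in WT, 86 in dKO). Mitochondrial ribosomal proteins gave 0 of 63, oxidative phosphorylation subunits 0 of 77 and the interferon response 0 of 30. Zinc-finger proteins named Zfp gave 3 of 222 (1.35%). Their median gains lay between -6.38 and -3.99 points, near that of all shared promoters.

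Antigen receptor segments, which are joined by V(D)J recombination, gave 7 of their 26 shared promoters (26.9%), and the 26 had a median gain of 9.78 points. At Gm16734, an immunoglobulin J segment on chromosome 12, 77 fragments lay over the WT summit and 816 over the dKO summit (percentiles 70.6 and 99.9, FPM ratio 14.3). This was the highest dKO pileup of the 163. Its WT summit lay 984 bp downstream of the start of the segment and outside annotated transcripts, near the limit of 1000 bp. Gm5770, a V segment on chromosome 14, had 34 and 141 fragments (percentiles 22.3 and 98.9). Trbd1, a D segment of the T cell receptor β locus, had 44 and 94, while Trbd2 had 34 and 38. The V segments Ighv14-3 (35 and 41), Gm16966 (36 and 42) and Gm16683 (65 and 72), on chromosome 12, lay nearer to the threshold. In T cells the T cell receptor loci are rearranged differently from cell to cell. V segments resemble each other, and the study kept only uniquely mapped reads. The part of either in these values was not tested.

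Aldoa, which encodes the glycolytic enzyme aldolase A, supplied 3 of the 163. Its peaks had 75, 67 and 80 fragments in WT and 448, 364 and 361 in dKO, with FPM ratios of 8.05, 7.33 and 6.08. All 6 dKO peaks in the gene lay 100% inside annotated exons and had 5.48 to 9.25 FPM. Of the 6 WT peaks in the gene, 4 lay fully in exons at 0.798 to 1.37 FPM, and the remaining 2 lay 40.8% and 0% in exons. The source of fragments restricted to exons was not tested. 2410002O22Rik had the next highest dKO pileup (83 and 176 fragments), under a dKO peak that covered 2 WT peaks.

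Of the nearest genes 141 of 163 were protein-coding, 6 were lincRNAs, 4 processed transcripts, 2 pseudogenes, 2 U5 snRNA copies and 1 a miRNA (Mir1955, 50 and 59 fragments). The summits lay farther from starts than those of other promoters. The median distance from the WT summit to the nearest start was 186 bp (181 bp for the 129), against 65 bp for all shared promoters and 98 bp for the 2484 with the lowest WT rank. A start lay within 100 bp for 37.4% (95% Wilson interval 30.4 to 45.1) and for 36.4% of the 129, against 62.6% of all shared promoters. Summits lay in introns for 36.8%, as at Itgb7, Nfkb1, Mcoln2, Xdh and Snx30, against 20.4% of all shared promoters. The dKO peak was the wider one at 124 of the 163 (76.1%) and at 69.8% of the 129, against 24.5% of all shared promoters. Width is not independent of the selection, since the rule chose higher dKO peaks and 34 of them covered 2 WT peaks. How much of the contrast follows from this was not tested.

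Base composition was not used by the rule. Within 100 bp of the WT summit the median GC content was 52.2% (quartiles 46.8 and 58.5) for the 163 and 51.2% for the 129. It was 62.2% (quartiles 55.7 and 67.7) for all shared promoters, 60.7% for the 2484 with the lowest WT rank and 65.7% for promoters ranking higher in WT. The ratio of observed to expected CpG was 0.433 for the 163 and 0.362 for the 129, against 0.807, 0.698 and 0.827 in these 3 sets. GC of at least 50% together with a CpG ratio of at least 0.6, a mark of CpG islands, was met by 48 of the 163 (29.4%, 95% Wilson interval 23.0 to 36.8), by 23.3% of the 129 and by 73.4% of all shared promoters. Of the 2484 with the lowest WT rank, 56.6% met it. Promoters are not replicates of a genotype, and the intervals cover counting error only.

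**Figure D4:**
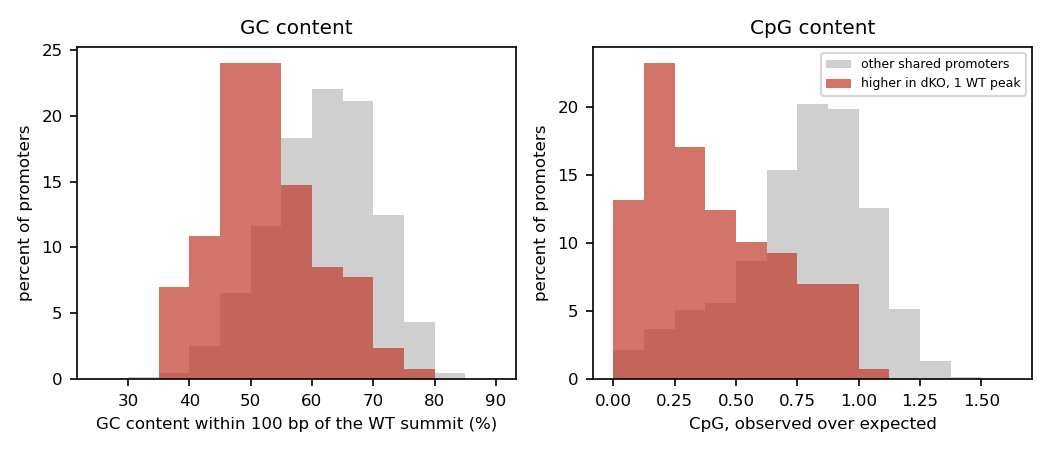
Distribution of GC content (left, percent) and of the observed over expected CpG ratio (right) within 100 bp of the WT summit, as the percent of promoters in each bin, for the 129 promoters ranking higher in dKO with 1 WT peak (red) and the other 9721 shared promoters (grey). The red medians are 51.2% GC and a CpG ratio of 0.362, against 62.2% and 0.807 for all shared promoters.

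Runx letters were the most frequent of the 14 motifs in these windows, closely followed by CCAAT. The Runx share was added as a result after seeing the data. TGTGGT stood on either strand in 31.9% of the 163 windows (95% Wilson interval 25.2 to 39.4) and in 38.0% of the 129 (30.1 to 46.6), against 10.6% of all shared promoters. It was 14.9% in the 2484 with the lowest WT rank, 9.68% among promoters ranking higher in WT and 8.82% of the 34 with 2 WT peaks. Windows with it included Gzmb, Itgb7, Nfkb1, Mcoln2, Inf2, Nkg7 and Tnfrsf9, whose stretches are printed above, and Fam124b, Lclat1, Snx30, Lig1, Cd200r3, Runx1, Cd48 and Akt1. Base composition moves with this share, so it was also taken by composition. Outside the windows that met the CpG island mark, Runx letters stood in 46 of 99 of the promoters with 1 WT peak (46.5%, 37.0 to 56.2) and in 19.2% (17.7 to 20.8) of the 2518 remaining shared promoters. Inside it, they stood in 3 of 30 (95% interval of the share 3.46% to 25.6%) and in 7.07% of 7203.

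AP-1 letters (TGANTCA) stood in 11.04% of the 163 windows (7.10 to 16.8) and 10.9% of the 129, against 3.39% of all shared promoters and 5.23% of the 2484 with the lowest WT rank. Windows with both Runx and AP-1 letters were 7, among them those of Gzmb, Itgb7, Inf2, Inpp5d and Runx1. A TATA box (TATAAA) stood in 10.4% (6.61 to 16.1) and in 8.53% of the 129, against 3.25%. Outside the mark it stood in 10.1% (5.58 to 17.6) of 99 and 5.36% (4.55 to 6.31) of 2518, with overlapping intervals. Inside the mark it stood in 3.33% (0.591 to 16.7) of 30 and 2.35% of 7203. Letters of CpG-rich promoters were rarer over all windows. The GC box stood in 27.6% (21.3 to 34.9, and 24.8% of the 129) against 55.4%. Inside the CpG island mark it stood in 70.0% (52.1 to 83.3) of the 30 with 1 WT peak and 65.9% of 7203. Outside the mark it stood in 11.1% (6.32 to 18.8) of 99 and 27.1% of 2518. The ETS letters CCGGAA stood in 14.1% (9.59 to 20.3, and 12.4% of the 129) against 26.8%.

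The Tcf/Lef core ATCAAAG stood in 6 of the 163 windows (3.68%, 95% Wilson interval 1.70 to 7.80) and in 1.59% of all shared promoters. The 6 were Prpf38a and Fam173b, each with 2 WT peaks, and Lclat1, Ino80, Timm10 and Gm16133. The interval of the 129 (3.10%, 1.21 to 7.70) reached below the share of all shared promoters. T-box letters (TCACACC) stood in 3.68% against 2.25%, CCAAT in 30.7% against 33.9%, interferon regulatory factor letters in 2.45% against 2.39%, the octamer ATTTGCAT in 1.23% against 1.17%, and CRE (TGACGTCA) in 3.68% against 4.04%. CTCF letters stood in 3.68% against 4.64%, E-boxes in 6.75% against 9.26% and NF-κB letters (GGGANTTCC) in 0.613% against 1.87%. Of the 163 windows 25 held none of the 14 motifs.

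**Figure D5:**
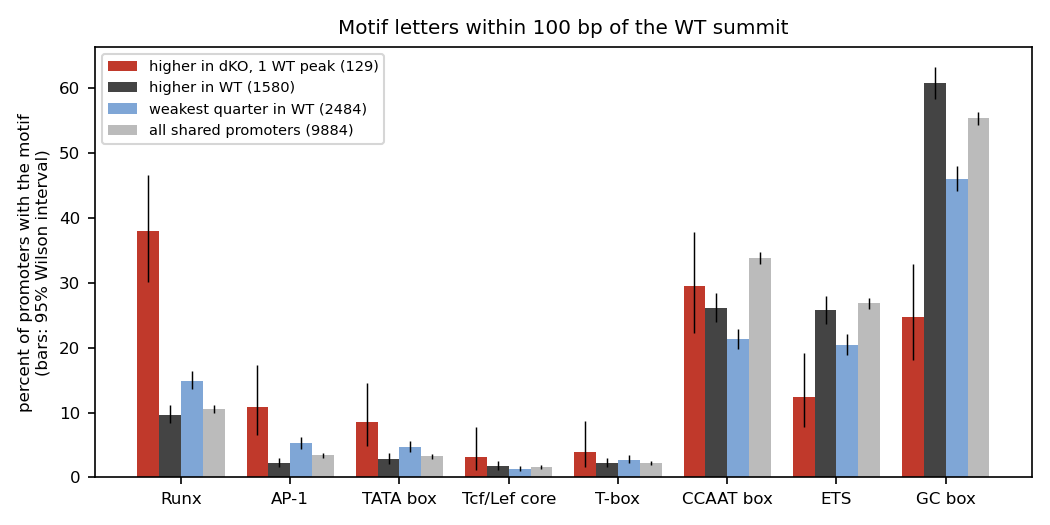
Percent of promoters with each motif within 100 bp of the WT summit (vertical axis, from 0), with 95% Wilson intervals as bars, for the 129 promoters ranking higher in dKO with 1 WT peak (red), the 1580 ranking higher in WT (dark grey), the 2484 shared promoters with the lowest WT rank (blue) and all shared promoters (light grey). Runx letters stand at 38.0% for the 129 and 10.6% for all shared promoters, GC boxes at 24.8% and 55.4%.

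Distal peaks around the 163 promoters, farther than 1000 bp from any start, were not used by the rule. Within 50 kb there were 0.417 dKO-only distal peaks per promoter (95% Poisson interval 0.324 to 0.529) and 0.450 per promoter for the 129, against 0.295 for all shared promoters. With protein-coding starts only it was 0.320 (0.230 to 0.435), with starts within 500 bp 0.395 (0.290 to 0.525), and without Aldoa and antigen receptor segments 0.379 (0.288 to 0.490), and each of these intervals included 0.295. At least 1 such peak lay near 31.9% of the 163 (25.2 to 39.4) and near 23.0% of all shared promoters. Gzmb, Nfkb1, Inf2, Cd7 and Snx30 each had 1. WT-only distal peaks numbered 0.761 per promoter (0.633 to 0.907), an interval that included the 0.698 of all shared promoters. Among 288 shared distal peaks within 50 kb of the 163, the median gain was 0.0675 points, against -3.22 near all shared promoters. Of the 288, 37 had a gain of at least 20 points (12.8%, 9.47 to 17.2), against 7.01% near all shared promoters and 8.09% of all shared distal peaks. All these values rest on the same 2 pools. In the values per promoter, the same distal peak can count for several neighbouring promoters, whereas each of the 288 shared distal peaks was counted once.

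Of the 163 promoters 9 lay within 50 kb of another one, in 4 runs: Hist1h3f and Hist1h4f, Ctla2b and Ctla2a, Trbd1 and Trbd2, and the 3 peaks of Aldoa.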

How the data were processed

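DNase-seq libraries of 3 WT and 2 dKO samples of naïve CD8+ T cells were used as the authors' 2 peak lists. Per the study's methods and the submitters' processing notes, reads were aligned to mm9 with Bowtie2 version 2.2.5, and replicates were pooled. The study's methods add that only uniquely mapped reads were kept. For each pool, MACS2 (2.1.1.20160309, BAMPE, no control, p threshold 1e-05) listed the peaks. The deposited pileup is an unscaled signal in fragments, the deposited fold enrichment is a ratio to local background, and and the authors' -log10 p-value is MACS2's own test of a summit, whose q-value was deposited as a -log10 score. The file headers give 167847468 WT and 124485926 dKO fragments before filtering and 83923734 and 62242963 after it, in an identical ratio for both pools, and the source of that ratio was not tested. FPM is the pileup per 1000000 of the latter.

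Members and gene lists were chosen with earlier results of these data known. Percentiles are average ranks within each list, and starts come from the mm9 GENCODE annotation. Named were the 15 protein-coding members with the largest gain and summits at most 100 bp apart, up to 20 members of the T cell and lineage lists, the 5 highest dKO pileups, and the 3 nearest pairs on each side of the threshold. Sequences came from the mm9 genome. The lineage-enriched lists were read, as symbols, from the copies of the study's supplementary lists used here, which hold 2277 symbols, 2151 of them in the annotation. The pairing and ranking steps were run on simulated lists with planted changes. Those lists had no counting noise, no difference in depth and no dKO peak over several WT peaks, so they check the steps only. Python 3.11.15, pandas 2.3.3, scipy 1.17.1 and pysam 0.24.0 were used. Wilson and exact Poisson intervals (95%) cover counting error only, and no value has replicate error. Alternatives were other definitions of height, overlap, promoter, threshold and window.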

Additional observations from a re-analysis of the deposited data

How the results depend on the processing

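The number of promoters stayed within 1.5 times 163 under 11 of 14 alternatives. It was 406 with percentiles taken among shared peaks only, 66 with a gain of at least 30 points and 296 with at least 15. It was 243 by the percentile of fold enrichment, 128 with 1 WT and 1 dKO peak per pair and 121 with summits at most 100 bp apart. Alternatives chosen after seeing the data gave 129 against the strongest WT peak, 147 with 1 fragment less in dKO and 153 without Aldoa and antigen receptor segments. The share with more FPM in dKO was 100% under all 14, which choosing by a higher dKO rank nearly fixes.

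The share with a higher percentile of fold enrichment in dKO was 100% with peaks that met the study's criteria, when chosen by fold enrichment, with protein-coding starts, at 30 points, with 1 fragment less, and without Aldoa and antigen receptor segments; choosing by height fixes most of this, and choosing by fold enrichment all of it. ATCAAAG was in 0.613% within 50 bp of the summit. TGTGGT, added after seeing the data, was in 24.7% when chosen by fold enrichment and 22.1% within 50 bp. The median GC content was 54.2% when chosen by fold enrichment. Members in a lineage-enriched list were 60 among shared peaks only, 13 at 30 points and 54 at 15. dKO-only distal peaks per promoter were 0.320 with protein-coding starts and 0.141 within 10 kb.

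No paired analysis was possible because each list pools its replicates. Leaving out single replicates could not be run for the same reason. At a median of 41 WT and 57 dKO fragments, counting error alone is large, and members near 20 points turn on a few fragments.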

Other observations

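On the X chromosome, which the selection left out, 2 of 270 shared promoters (0.741%) gained at least 20 points. BC065397 had 39 fragments in WT and 80 in dKO, under a dKO peak that covered 2 WT peaks. Msl3, a subunit of a histone acetyltransferase complex, had 41 and 48.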
